A study of Caenorhabditis elegans with 24 samples.

Results

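The results concern 8 metal-handling genes of Caenorhabditis elegans, taken from a fixed list of symbols out of the 46904 gene identifiers in the tables. They are the metallothionein genes mtl-1 and mtl-2, the ferritin genes ftn-1 and ftn-2, the half-molecule ABC transporter gene hmt-1, and the NRAMP-type transporter genes smf-1, smf-2 and smf-3. RNA came from whole worms of wild-type N2 and of CF1041, which carries daf-2(e1370), a reduced-function allele of the insulin/IGF-1 receptor gene, collected on adult days 1, 4, 7 and 11, with 3 libraries in each of the 8 groups and 24 in all. Every group had the same handling: embryos from bleaching spent 16 h in buffer at 20°C, larvae grew on OP50 bacteria, and 50 µM FUDR, which stops progeny from hatching, was present from the L4 stage onward. The mutant is represented by a single strain. Nothing in the labels tells whether the 3 libraries of a group are separate cultures, and p-values then measure only the spread between these libraries, which may be technical. The e1370 allele changes the receptor protein and is not known to remove its transcript, so daf-2 RNA does not check the labels.

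Metallothioneins are small cysteine-rich proteins that bind zinc, copper and cadmium, and worms make a pair of them, largely in the intestine. Ferritin is a hollow shell that stores iron in a non-reactive form, and both worm genes encode heavy-chain subunits. NRAMP proteins, related to mammalian DMT1, import iron and manganese across the gut membrane, while HMT-1 is needed for tolerance of cadmium. In worms with reduced insulin signalling the FOXO factor DAF-16 enters the nucleus, and mtl-1 is a commonly used reporter of its activity. The intestinal GATA factor ELT-2, the hypoxia factor HIF-1 and the zinc-sensing nuclear receptor HIZR-1 are known regulators of genes in this group.

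The libraries held between 20660999 and 32655703 expected counts. Levels are given in CPM, counts scaled to a common library size with TMM factors, which even out differences in library composition. Ribosomal RNA took 3.9% to 14.55% of counts. Libraries numbered 3 held 7.92% to 14.55%, those numbered 1 held 5.59% to 8.83% and those numbered 2 held 3.9% to 9.62%. These are whole worms, so fewer cells of a type and less RNA per cell cannot be told apart. A list of 8 intestinal marker genes summed to 857 to 1060 CPM in N2 on day 1, 631 to 667 on day 4, 447 to 512 on day 7 and 264 to 275 on day 11. In daf-2 worms the same list summed to 865 to 1040, 536 to 707, 250 to 439 and 167 to 254 CPM on those days. Of the 8, 5 were lower and 1 was higher on day 11 than on day 1 in N2, and 5 were lower in daf-2, with no marker at 0 in every library. Between the strains 1 of the 8 was higher in daf-2 on day 4, 3 were lower on day 7, and 2 were lower and 1 higher on day 11. Over all genes tested, 1.56% were higher on day 4, 0.994% lower on day 7, and 2.24% lower and 1.71% higher on day 11. Body muscle markers were lower on day 11 than on day 1 in 6 of 6 in both strains. Germline markers were lower in 5 of 7 in N2 and 4 of 7 in daf-2, and sperm markers were higher in 3 of 5 in both. Of 8 oocyte and eggshell markers, 2 were higher in N2 and 1 in daf-2, with none lower. Of 6 neuron markers 1 was higher in each strain, and of 3 coelomocyte markers none was called. Over all genes tested, 19.2% were lower and 22.5% higher in N2, and 18% and 22.3% in daf-2. No marker outside the intestinal list differed between the strains beyond the threshold. The part of these tissue markers in the results below was not tested.

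On an exon-length basis, the balance among the 8 genes differed between young N2 and old daf-2 worms. In N2 on day 1, ftn-2 stood at 379 ± 127 CPM per kb of exon (SD, n = 3) and mtl-2 at 60.7 ± 36.6. On the same scale smf-1 stood at 10.5 ± 1.54, hmt-1 at 4.12 ± 1.19, mtl-1 at 2.60 ± 2.07 and ftn-1 at 1.63 ± 0.787. The lowest levels per kb were those of smf-3, at 0.572 ± 0.0985, and smf-2, at 0.0212 ± 0.00272. In daf-2 on day 11 the highest level per kb was that of mtl-1, 1210 ± 214, followed by ftn-2 and then by ftn-1 at 121 ± 8.44. There smf-1 was at 26.4 ± 2.25, hmt-1 at 24.9 ± 2.95 and mtl-2 at 14.1 ± 7.47 CPM per kb, with smf-3 at 2.88 ± 0.461 and smf-2 at 0.173 ± 0.0489. So mtl-1 moved from the fifth place to the first, and mtl-2 from the second to the sixth. Neighbours whose levels lay within their spread were hmt-1, mtl-1 and ftn-1 in N2 on day 1, and smf-1 and hmt-1 in daf-2 on day 11.

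**Figure D1:**
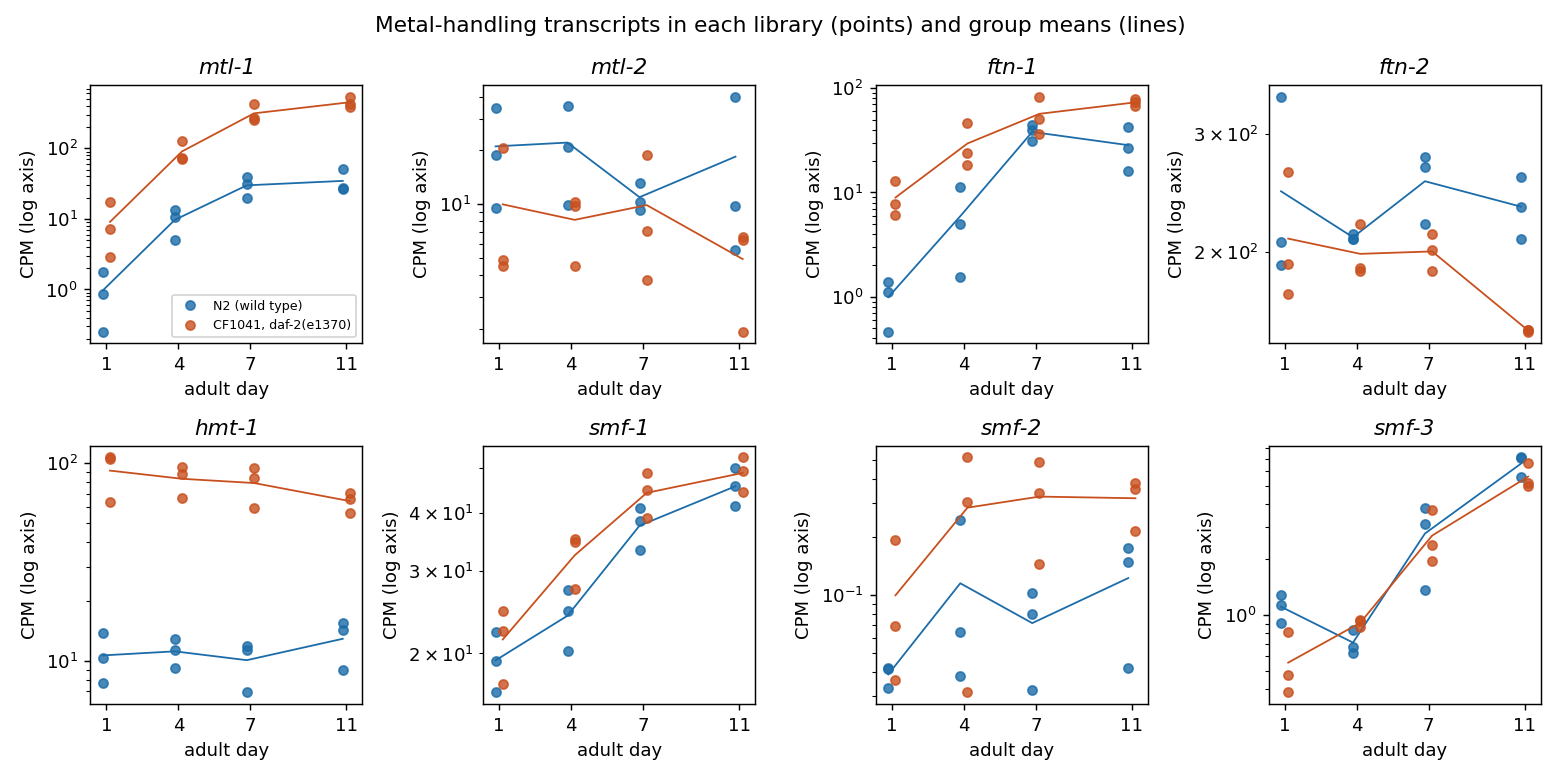
Levels of the 8 genes in CPM (log axis, a separate range for each gene) against adult day, with 1 point per library, lines through the group means of 3 libraries, and N2 in blue and daf-2(e1370) in orange. mtl-1 spans 0.252 to 540 CPM and hmt-1 separates the strains at every age, while ftn-2 stays between 152 and 341 CPM.

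Counted over the 8 genes, the calls of edgeR's quasi-likelihood test (adjusted p below 0.05 over the 16698 genes tested) were all in the direction of higher levels. With age in N2, 2 of the 8 were higher on day 4 than on day 1, against 3.01% of all genes tested. On day 7, 4 were higher against 12.8% of all genes, and on day 11 again 4, against 22.5%. In daf-2 worms, 3 were higher on day 4, where 4.22% of all genes were, 4 on day 7, where 15.1% were, and 4 on day 11, where 22.3% were. Between the strains, 3 of the 8 were higher in daf-2 on day 1 against 1.14% of all genes, and 3 on day 4 against 1.56%. On day 7, 2 were higher in daf-2 against 1.1% of all genes, and on day 11 also 2, against 1.71%. No member passed as lower in any of these comparisons. The members were chosen with earlier results of these data known, so the shares over all genes are a background and not a test of the list. The 3 age comparisons within a strain share its day 1 libraries, and the strain comparisons use the same libraries again.

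The metallothionein gene mtl-1 (WBGene00003473, WBcel235 chrV:6691371-6691863, minus strand, 2 exons) rose with age in both strains and was higher in daf-2 worms at every age. In N2 its level in libraries 1, 2 and 3 was 0.252, 0.868 and 1.79 CPM on day 1 and 13.5, 10.5 and 5.10 on day 4. On day 7 it was 31.4, 38.7 and 19.7 CPM, and on day 11 it was 26.6, 27 and 50.2. Every later N2 library lay above every day 1 library, and the day 7 and day 11 libraries overlapped. In daf-2 worms the level was 2.92, 7.12 and 17.2 CPM on day 1 and 70.1, 72.3 and 129 on day 4. It was 255, 267 and 419 CPM on day 7 and 386, 426 and 540 on day 11. The strains did not overlap at any age, and the daf-2 day 1 libraries overlapped those of N2 on day 4.

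In log2 units, mtl-1 in N2 was higher than on day 1 by 3.27 ± 0.60 (SE) on day 4 (adjusted p = 0.00139), 4.90 ± 0.62 on day 7 (adjusted p = 8.72e-06) and 5.11 ± 0.63 on day 11 (adjusted p = 2.15e-06). The day 11 difference was 34.6-fold in the fit, and 106-fold, 31.1-fold and 28.1-fold in same-numbered pairs 1, 2 and 3. The N2 day 1 libraries held only 6, 21 and 54 counts of mtl-1. Without N2 day 1 library 3, the highest of that group, the N2 changes were 4.1, 5.72 and 5.93 on days 4, 7 and 11. In daf-2 the change was 3.31 ± 0.54 on day 4 (adjusted p = 0.000491), 5.11 ± 0.59 on day 7 (adjusted p = 3.23e-06) and 5.63 ± 0.60 on day 11 (adjusted p = 5.77e-07), the last being 49.5-fold. Without daf-2 day 1 library 3, also the highest of its group, they were 4.17, 5.96 and 6.48. Without all libraries numbered 3 the changes on days 4, 7 and 11 were 4.4, 5.95 and 5.57 in N2, and 3.82, 5.7 and 6.33 in daf-2. The strain-by-age term, the difference between these changes, on day 11 was 0.52 ± 0.78 (adjusted p = 1), with a 95% interval of -1 to 2.04. The strain difference, daf-2 over N2, was 3.18 ± 0.60 on day 1 (adjusted p = 0.00398), 3.22 ± 0.54 on day 4 (adjusted p = 0.00131), 3.39 ± 0.54 on day 7 (adjusted p = 0.000761) and 3.70 ± 0.55 on day 11 (adjusted p = 0.0002). The day 1 difference was 4.01 without N2 day 1 library 3 and 2.33 without daf-2 day 1 library 3, and both passed. Without all libraries numbered 3 the day 4 difference was 2.57 (adjusted p = 0.000615). In a fit with only the day 1 groups, the day 1 difference was 3.23 and did not pass (adjusted p = 0.181). Set against the N2 library of the same number, the daf-2 library was higher in 12 of 12 pairs, by 5.2-fold to 25.3-fold.

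The other metallothionein gene, mtl-2 (WBGene00003474, chrV:14018270-14018673, minus strand, 2 exons), did not follow mtl-1, and its libraries scattered widely. N2 levels in libraries 1, 2 and 3 were 34.7, 9.55 and 18.9 CPM on day 1, and 35.5, 9.83 and 21 on day 4. On day 7 it was 13.2, 9.26 and 10.3 CPM, and on day 11 it was 40.0, 5.53 and 9.78. In daf-2 worms it was 4.88, 4.48 and 20.5 CPM on day 1, 9.76, 4.48 and 10.2 on day 4, 7.02, 3.76 and 18.8 on day 7, and 6.30, 1.92 and 6.51 on day 11. Library 2 was the lowest of its group in 8 of 8 groups, and neighbouring groups in the order of means overlapped throughout. The mean ran from 22.1 ± 12.8 CPM in N2 on day 4 (SD, n = 3) down to 4.91 ± 2.59 in daf-2 on day 11.

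No comparison of mtl-2 passed. From day 1 to day 11 the log2 change was -0.19 ± 0.72 in N2 (adjusted p = 0.854) and -1.03 ± 0.74 in daf-2 (adjusted p = 0.281). The widest strain difference was on day 11, -1.91 ± 0.76 (adjusted p = 0.195), which passed with replicate number as a block (-1.83, adjusted p = 0.0312). Within libraries of the same number, daf-2 was below N2 in 10 of 12 pairs, from 0.141-fold to 1.83-fold over all 12. Without N2 day 11 library 1, at 40.0 CPM, the day 11 strain difference was -0.65 (adjusted p = 0.853).

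The ferritin gene ftn-1 (WBGene00001500, chrV:7546468-7547579, minus strand, 3 exons), which encodes the iron-inducible intestinal subunit, rose with age in both strains from a higher start in daf-2. In N2 its level in libraries 1, 2 and 3 was 0.462, 1.12 and 1.39 CPM on day 1 and 5.01, 11.2 and 1.56 on day 4. It reached 39.3, 30.9 and 44.0 CPM on day 7 and stood at 16.0, 42.8 and 26.5 on day 11. In daf-2 it was 7.76, 6.08 and 13 CPM on day 1 and 23.9, 18.4 and 46.2 on day 4. On day 7 the daf-2 level was 50.8, 36.7 and 82.9 CPM, and on day 11 it was 78.1, 67.9 and 73.5. The strains were apart on days 1, 4 and 11, and on day 7 the lowest daf-2 library lay among those of N2.

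Relative to day 1, ftn-1 in N2 was higher by 2.56 ± 0.58 log2 units on day 4 (adjusted p = 0.00752), 5.24 ± 0.62 on day 7 (adjusted p = 3.72e-06) and 4.82 ± 0.61 on day 11 (adjusted p = 3.33e-06). In daf-2 the changes were 1.72 ± 0.51 (adjusted p = 0.0367), 2.67 ± 0.52 (adjusted p = 0.00082) and 3.03 ± 0.53 (adjusted p = 0.000157). The day 11 changes correspond to 28.2-fold in N2 and 8.18-fold in daf-2, and the strain-by-age term was -2.57 ± 0.76 on day 7 (adjusted p = 0.548) and -1.79 ± 0.75 on day 11 (adjusted p = 0.53). Day 4 was the least firm age: the N2 change did not pass without N2 day 1 library 1 (2.23, adjusted p = 0.0564) or N2 day 4 library 2 (1.70, adjusted p = 0.0888). Without all libraries numbered 3 it was 3.36 (adjusted p = 0.00215). The daf-2 change on day 4 did not pass without daf-2 day 1 library 1 (1.63, adjusted p = 0.12), day 1 library 2 (1.51, adjusted p = 0.136) or day 4 library 3 (1.24, adjusted p = 0.193), nor with no filter on low counts (1.65, adjusted p = 0.0514).

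Between the strains, ftn-1 was higher in daf-2 by 3.15 ± 0.59 log2 units on day 1 (adjusted p = 0.00369), an 8.88-fold difference, and by 2.31 ± 0.52 on day 4 (adjusted p = 0.0184). The differences of 0.58 ± 0.49 on day 7 (adjusted p = 0.826) and 1.37 ± 0.50 on day 11 (adjusted p = 0.151) did not pass, and their 95% intervals were -0.39 to 1.54 and 0.39 to 2.34. All 12 pairs of same-numbered libraries had more ftn-1 in daf-2, by 1.19-fold to 29.6-fold. The day 4 difference did not pass in a fit with only the groups compared (2.38, adjusted p = 0.148), without all libraries numbered 3 (1.37, adjusted p = 0.159), or without N2 day 4 library 1 (2.2, adjusted p = 0.118), N2 day 4 library 3 (1.86, adjusted p = 0.076) or daf-2 day 4 library 3 (1.83, adjusted p = 0.106). Without N2 day 4 library 2 it was 3.17 (adjusted p = 0.00381).

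The second ferritin gene, ftn-2 (WBGene00001501, chrI:3680180-3680927, minus strand, 3 exons), the more abundant and more broadly expressed subunit, varied little. N2 libraries 1, 2 and 3 held 207, 191 and 341 CPM on day 1, 209, 209 and 213 on day 4, 268, 220 and 277 on day 7, and 209, 259 and 233 on day 11. The daf-2 libraries held 192, 173 and 263 CPM on day 1, 187, 189 and 220 on day 4, 201, 213 and 187 on day 7, and 153, 153 and 152 on day 11. The daf-2 day 11 libraries were below all the others, and the other groups overlapped with their neighbours in the order of means.

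The daf-2 change from day 1 to day 11 was -0.45 ± 0.19 log2 units (adjusted p = 0.0584). It passed with replicate number as a block (-0.43, adjusted p = 0.0224), in DESeq2 (-0.48, adjusted p = 0.0383) and without daf-2 day 1 library 2 (-0.58, adjusted p = 0.0357). In N2 the change over those ages was -0.08 ± 0.19 (adjusted p = 0.766), and without N2 day 1 library 3, at 341 CPM, it was 0.23 (adjusted p = 0.268). On day 11 the strains differed by -0.61 ± 0.19 (adjusted p = 0.0742), daf-2 being lower in 3 of 3 libraries. That difference passed with the block (-0.61, adjusted p = 0.0153), without libraries numbered 3 (adjusted p = 0.00839), with only the groups compared (adjusted p = 0.0346) and in DESeq2 (-0.59, adjusted p = 0.0472). The strain-by-age term was -0.38 ± 0.26 (adjusted p = 0.912).

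**Figure D2:**
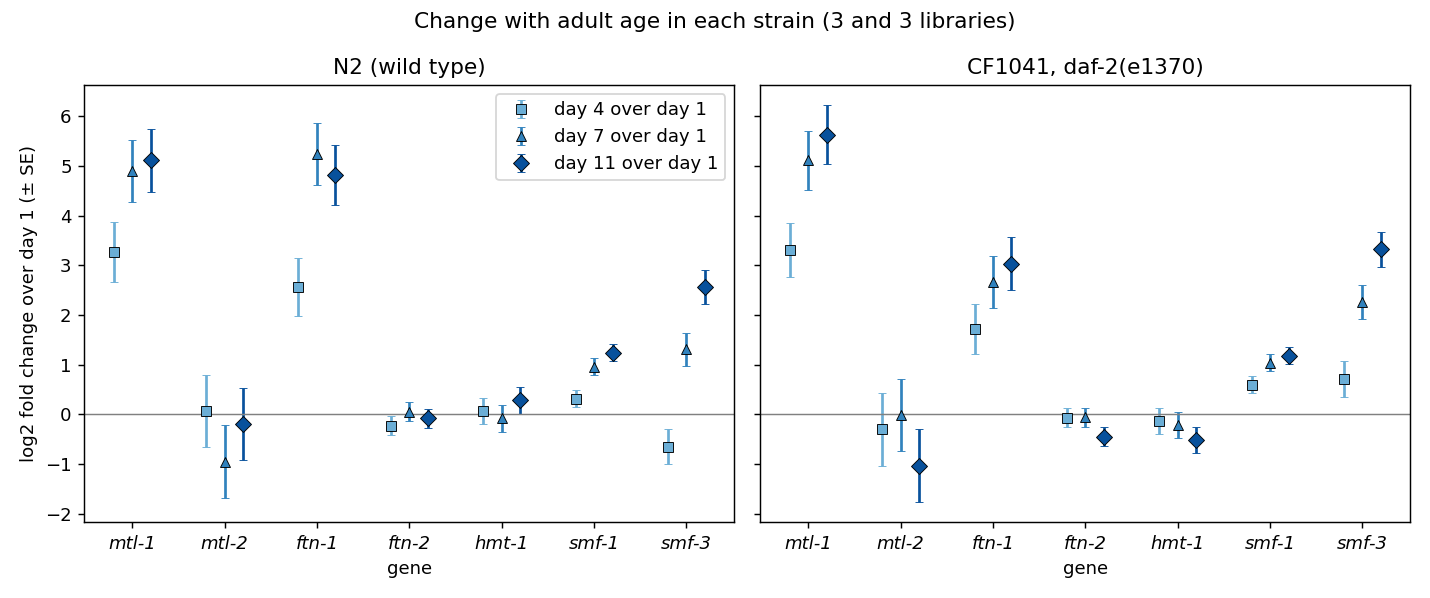
Log2 fold change over day 1 on days 4, 7 and 11 (points, with bars of ± SE from edgeR) for 7 of the 8 genes in N2 (left) and daf-2(e1370) (right), 3 libraries against 3; smf-2 is left out for its low counts. mtl-1 and ftn-1 reach 5.11 and 4.82 in N2 and 5.63 and 3.03 in daf-2 on day 11, smf-1 and smf-3 reach 1.24 and 2.56 in N2 and 1.18 and 3.32 in daf-2, and mtl-2, ftn-2 and hmt-1 have no change that passed.

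The transporter gene hmt-1 (WBGene00001815, chrIII:11091548-11099964, minus strand, 12 exons) separated the strains at every age and had no change with age that passed. N2 libraries 1, 2 and 3 held 13.9, 10.3 and 7.74 CPM on day 1, 11.4, 12.9 and 9.19 on day 4, 11.4, 11.9 and 6.91 on day 7, and 15.5, 14.3 and 8.97 on day 11. The daf-2 libraries held 105, 107 and 63.3 CPM on day 1, 96.0, 87.9 and 66.4 on day 4, 94.9, 83.9 and 59.4 on day 7, and 71.1, 65.7 and 56.1 on day 11. The lowest of the 12 daf-2 libraries, 56.1 CPM, was above the highest of the 12 N2 libraries, 15.5 CPM.

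The daf-2 over N2 difference in hmt-1 was 3.11 ± 0.29 log2 units on day 1 (adjusted p = 8.65e-07), 2.90 ± 0.29 on day 4 (adjusted p = 1.92e-06), 2.98 ± 0.29 on day 7 (adjusted p = 1.12e-06) and 2.32 ± 0.28 on day 11 (adjusted p = 1.69e-05). In fold terms these were 8.63, 7.46, 7.88 and 4.98, and each of 12 same-numbered pairs was higher in daf-2, by 4.58-fold to 10.4-fold. Library 3 was the lowest of its group in 8 of 8 groups. These libraries held 7.92% to 14.55% ribosomal RNA, and a link between that share and hmt-1 was not tested. Without libraries numbered 3 the strain differences were 3.13, 2.92, 2.94 and 2.2 on the 4 ages. From day 1 to day 11 hmt-1 changed by 0.28 ± 0.27 in N2 (adjusted p = 0.423) and by -0.51 ± 0.26 in daf-2 (adjusted p = 0.127). The daf-2 value passed with replicate number as a block (-0.48, adjusted p = 0.00147), without libraries numbered 3 (-0.63, adjusted p = 0.00166) and without daf-2 day 1 library 3 (-0.73, adjusted p = 0.0376). The difference between the strains in this change was -0.79 ± 0.38 (adjusted p = 0.631).

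An exon of hmt-1 overlaps W09D6.5 on the plus strand over 70 bp. W09D6.5 lay at 8.06 to 19.5 CPM in N2 and 8.13 to 16.3 CPM in daf-2, ranges that overlap where those of hmt-1 did not. The libraries were made with a stranded kit, but whether counting used strand is not given in the sources used here.

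**Figure D3:**
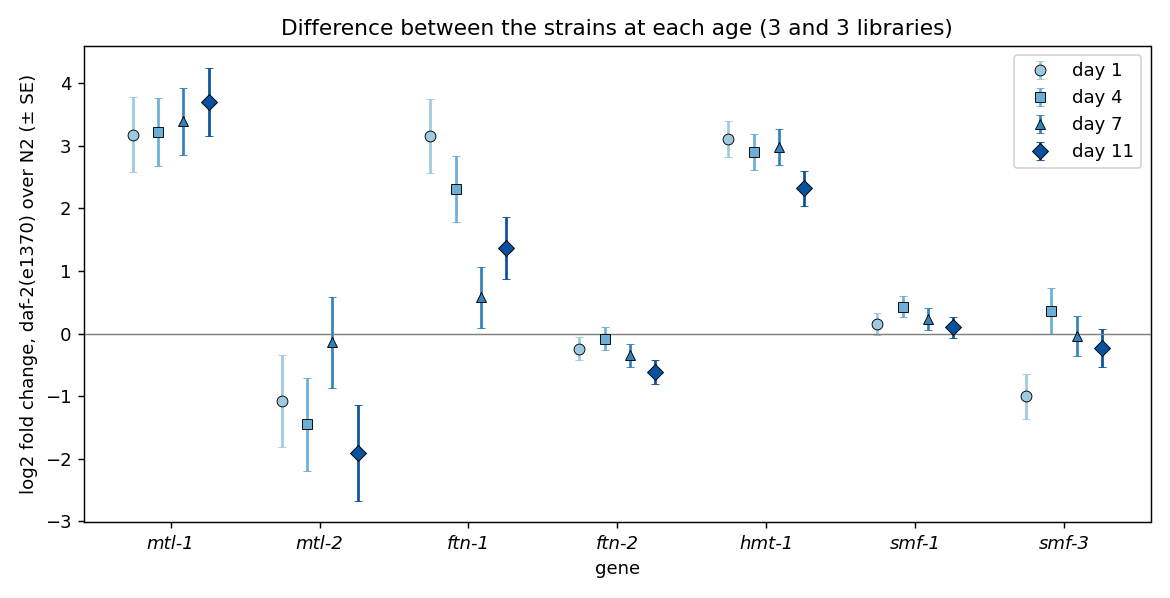
Log2 fold change of daf-2(e1370) over N2 on days 1, 4, 7 and 11 (points, with bars of ± SE from edgeR, 3 libraries against 3) for 7 of the 8 genes, without smf-2. mtl-1 lies between 3.18 and 3.70 and hmt-1 between 2.32 and 3.11 at all ages, ftn-1 is at 3.15 on day 1 and 0.58 on day 7, and smf-1 is near 0.

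Of the NRAMP genes, smf-1 (WBGene00004876, chrX:6719669-6723066, minus strand, 15 exons), a manganese and iron importer, rose with age in both strains. In N2 its level in libraries 1, 2 and 3 was 16.5, 19.3 and 22.2 CPM on day 1, 20.2, 24.7 and 27.4 on day 4, 33.3, 38.5 and 40.9 on day 7, and 41.4, 45.6 and 49.9 on day 11. Levels in daf-2 were 17.2, 24.7 and 22.4 CPM on day 1, 27.5, 34.7 and 35.2 on day 4, 39.1, 44.8 and 48.6 on day 7, and 44.4, 52.6 and 49.2 on day 11. All day 7 and day 11 libraries were above all day 1 libraries, and library 1 was the lowest of its group in 8 of 8 groups.

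The log2 change of smf-1 in N2 was 0.96 ± 0.17 on day 7 (adjusted p = 0.000264) and 1.24 ± 0.17 on day 11 (adjusted p = 7.69e-06), or 2.36-fold. In daf-2 it was 1.04 ± 0.17 on day 7 (adjusted p = 0.00012) and 1.18 ± 0.17 on day 11 (adjusted p = 1.56e-05), or 2.27-fold. The median of all genes over the same ages moved by 0.10 in N2 and 0.09 in daf-2. On day 4 the change was 0.32 ± 0.17 in N2 (adjusted p = 0.262) and 0.60 ± 0.17 in daf-2 (adjusted p = 0.0261). The daf-2 value did not pass with only the groups compared (adjusted p = 0.186), with no filter (adjusted p = 0.104), without libraries numbered 3 (adjusted p = 0.0616), or without daf-2 day 1 library 1 (adjusted p = 0.135), day 4 library 2 (adjusted p = 0.0972) or day 4 library 3 (adjusted p = 0.0975). No strain difference passed; on day 4 it was 0.43 ± 0.17 (adjusted p = 0.3), and it passed there with replicate number as a block (adjusted p = 0.00572). On day 11 it was 0.10 ± 0.17 (adjusted p = 0.934) with a 95% interval of -0.23 to 0.42, and daf-2 was higher in 11 of 12 same-numbered pairs over all ages, from 0.987-fold to 1.4-fold.

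smf-3 (WBGene00004878, chrIV:2618869-2625503, plus strand, 13 exons), the main intestinal importer of manganese and iron, was scarce in young worms and rose by day 7 in both strains. In N2 its level in libraries 1, 2 and 3 was 1.13, 0.91 and 1.29 CPM on day 1, 0.834, 0.673 and 0.625 on day 4, 3.10, 3.81 and 1.37 on day 7, and 7.11, 7.04 and 5.59 on day 11. Levels in daf-2 were 0.474, 0.382 and 0.806 CPM on day 1, 0.859, 0.939 and 0.927 on day 4, 2.4, 3.72 and 1.95 on day 7, and 4.99, 6.63 and 5.18 on day 11. On day 1 all N2 libraries were above all daf-2 libraries, on day 4 the reverse held, and on days 7 and 11 the strains overlapped. These levels rest on 11 to 243 counts per library.

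The log2 change of smf-3 from day 1 was 1.31 ± 0.33 on day 7 (adjusted p = 0.00629) and 2.56 ± 0.34 on day 11 (adjusted p = 5.39e-06) in N2. In daf-2 it was 2.26 ± 0.35 on day 7 (adjusted p = 8.37e-05) and 3.32 ± 0.36 on day 11 (adjusted p = 5.83e-07). The day 11 values are 5.88-fold in N2 and 10-fold in daf-2, and the difference between them, 0.77 ± 0.47, did not pass (adjusted p = 0.839). On day 4 neither strain had a change that passed, with -0.65 ± 0.35 in N2 (adjusted p = 0.28) and 0.71 ± 0.36 in daf-2 (adjusted p = 0.253). The N2 day 7 change missed the threshold without N2 day 7 library 2 (1.00, adjusted p = 0.0506). No strain difference passed, the widest being -1 ± 0.36 on day 1 (adjusted p = 0.266).

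smf-2 (WBGene00004877, chrX:6716195-6718695, minus strand, 12 exons), a paralog that lies beside smf-1 on the chromosome, was close to the limit of detection, with 1 to 16 counts per library. The counts summed over 3 libraries were 3, 10, 6 and 12 in N2 and 9, 22, 30 and 30 in daf-2 on days 1, 4, 7 and 11. Over 12 libraries each, N2 held 31 and daf-2 held 91 counts. As ratios of levels with 95% intervals that cover counting error only, day 11 over day 1 was 3.41 in N2 (0.921 to 18.8) and 3.12 in daf-2 (1.44 to 7.46). daf-2 over N2 was 2.69 on day 1 (0.671 to 15.4) and 2.46 on day 11 (1.22 to 5.27). In the fit over all genes smf-2 passed in no comparison, with adjusted p = 0.204 for day 11 against day 1 in N2 and 0.105 in daf-2. The daf-2 change passed with replicate number as a block (adjusted p = 0.0242). It was also among the 6 members called without all libraries numbered 3, and among the 6 called without daf-2 day 1 library 3. Its exons overlap nas-11, on the plus strand, over 163 bp. nas-11 lay at 79.4 to 368 CPM in N2 and 64.7 to 145 CPM in daf-2, far above smf-2. Within that overlap, a small part of the 1829 bp of smf-2 exon, reads from the pair cannot be told apart if counting did not use strand.

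None of the 8 genes had a change with age that differed between the strains by the strain-by-age test, against 0% of all genes called on day 4, 0.012% on day 7 and 0.347% on day 11. At an unadjusted p below 0.05 there were 1, 1 and 2 of the 8 on days 4, 7 and 11, and 407, 621 and 1301 of all genes. DESeq2 called 0 of the 8 on each of those days. On day 11 hmt-1 passed without libraries numbered 3 (-0.93, adjusted p = 0.0444) and with a replicate block (-0.76, adjusted p = 0.0231). That comparison fell short of the rule used here for pairing, every correlation between same-numbered libraries above 0.1. The members with an unadjusted p below 0.05 were smf-3 on day 4, ftn-1 on day 7, and ftn-1 and hmt-1 on day 11.

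Ratios of paralogs within a library do not depend on how libraries are scaled, and all 3 of them changed with age. They were taken as log2 of counts, not corrected for length, with exact two-sided permutation tests, within ages for strain and within strains for day 11 against day 1, over a family of 6 tests. In N2 the log2 ratio of mtl-1 to mtl-2 was -4.60 ± 2.07 (SD, n = 3) on day 1 and 1.35 ± 1.68 on day 11. In daf-2 it was -0.11 ± 0.71 and 6.70 ± 0.97. So mtl-2 was the more abundant of the pair in young N2 worms and mtl-1 in old daf-2 worms. Over all ages the ratio was 4.58 log2 units higher in daf-2 (permutation p = 1.25e-05, adjusted p = 3.75e-05) and 6.38 higher on day 11 than on day 1 (permutation p = 0.005, adjusted p = 0.006), both being the smallest p these designs allow.

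ftn-1 to ftn-2 rose from -8.02 ± 0.68 log2 units on day 1 to -3.15 ± 0.55 on day 11 in N2, and from -4.60 ± 0.24 to -1.07 ± 0.10 in daf-2 (SD, n = 3). ftn-2 was thus the more abundant ferritin transcript in all 24 libraries, and the gap narrowed. The ratio was 2.26 higher in daf-2 (permutation p = 1.25e-05, adjusted p = 3.75e-05) and 4.2 higher on day 11 (permutation p = 0.005, adjusted p = 0.006), again the smallest p possible. smf-3 to smf-1 went from -4.10 ± 0.27 to -2.79 ± 0.32 in N2 and from -5.28 ± 0.61 to -3.13 ± 0.13 in daf-2 between those days. Its age difference was 1.73 (permutation p = 0.005, adjusted p = 0.006). Its strain difference was -0.45 (permutation p and adjusted p = 0.0408), and with single libraries left out it ranged from -0.57 to -0.36 and lost the call in 12 of 24 cases, with an adjusted p of up to 0.102.

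**Figure D4:**
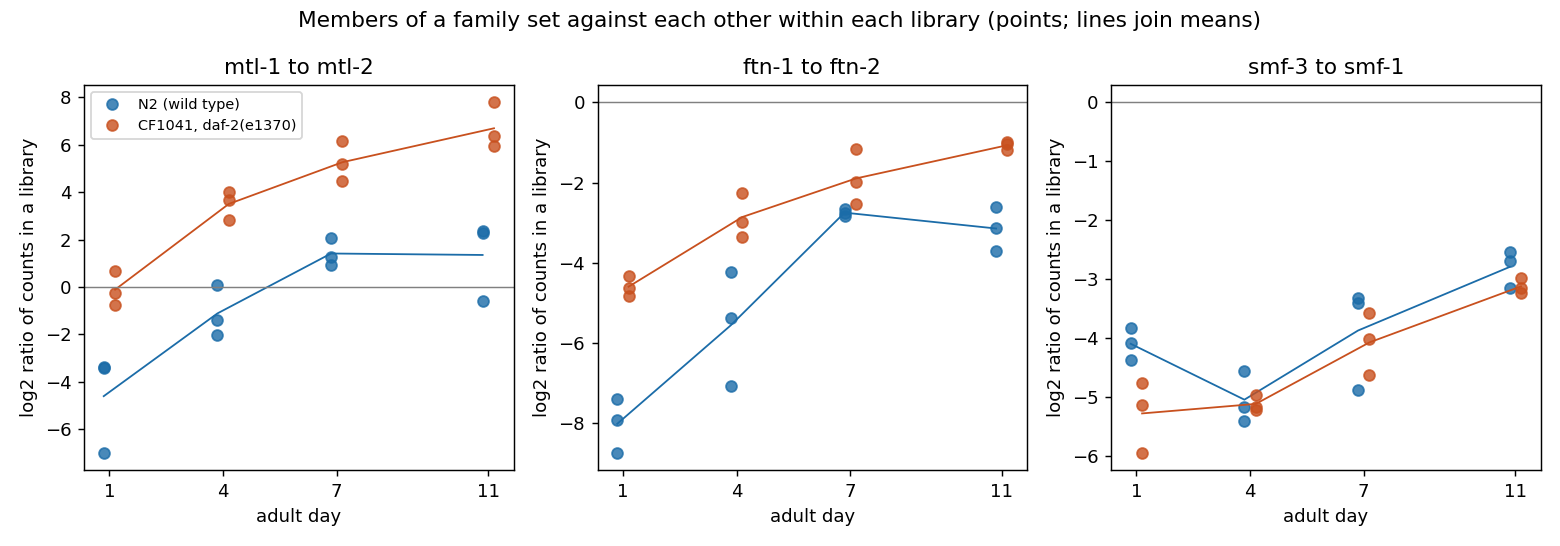
Log2 ratio of counts of 2 genes of a family within each library (points; lines join group means of 3 libraries) against adult day for mtl-1 to mtl-2, ftn-1 to ftn-2 and smf-3 to smf-1, with N2 in blue and daf-2(e1370) in orange and a grey line at equal counts. The first ratio crosses from -4.60 to 1.35 in N2 and reaches 6.70 in daf-2, while the other 2 stay below 0 in all libraries.

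Across the 8 group means, mtl-1 and ftn-1 had similar patterns (Pearson r = 0.94 on log2 CPM), and so did ftn-1 and smf-1 (r = 0.91). The correlation was negative for mtl-1 and mtl-2 (r = -0.77) and for mtl-2 and hmt-1 (r = -0.81), though no change of mtl-2 passed. These are descriptions over 8 points that share libraries, strains and ages. Among 7792 protein-coding genes, the pattern of mtl-1 was most like those of T24B8.3 (r = 0.989), fbxa-182 (r = 0.989) and F17E9.2 (r = 0.985). For ftn-1 they were ttr-26 (r = 0.986), ZK1320.11 (r = 0.984) and dod-3 (r = 0.983), a gene named for acting downstream of DAF-16. hmt-1 was closest to lsy-27 (r = 0.994), R03D7.2 (r = 0.988) and sqrd-1 (r = 0.978), the sulfide:quinone oxidoreductase gene. For smf-1 the nearest were T12D8.5 (r = 0.999), pitr-4 (r = 0.995) and F11D5.1 (r = 0.994), and for smf-3 they were W02D9.6 (r = 0.994), unc-41 (r = 0.994) and Y18D10A.3 (r = 0.993). For mtl-2 and ftn-2 the closest matches had lower r: tasp-1 (r = 0.939), nish-1 (r = 0.936) and plag-15 (r = 0.930) for mtl-2, and F59A6.12 (r = 0.961), T22B7.7 (r = 0.960) and daf-22 (r = 0.958), the thiolase gene of ascaroside synthesis, for ftn-2.

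Other genes of metal handling came from 7 lists with 63 symbols, and 60 genes were tested. The symbol numr-1 enters these counts as a pair of genes with the same values. From day 1 to day 11 in N2, 11 of 60 were higher and 16 lower, with a median log2 change of 0.01 against 0.10 over all genes. In daf-2, 5 were higher and 14 lower, with a median of -0.02 against 0.09. Over all genes 22.5% were higher and 19.2% lower in N2, and 22.3% and 18% in daf-2. Between the strains 1 of 60 was called on day 1, higher in daf-2, against 1.75% of all genes in either direction. On day 11, 2 were higher and 1 lower, against 3.95% of all genes in either direction.

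Of 8 heme genes tested, 1 was higher and 3 lower in N2 on day 11, where 22.5% and 19.2% of all genes were. In daf-2, 1 was higher and 4 lower, against 22.3% and 18% of all genes. The higher one was mrp-5, which exports heme from the intestine and rose by 1.02 ± 0.18 log2 units in N2 (158 ± 38.6 to 319 ± 16.8 CPM, SD, n = 3, adjusted p = 0.000156) and by 0.70 ± 0.18 in daf-2 (adjusted p = 0.00443). hrg-7, a secreted protease-like factor of heme signalling, fell by 1.56 in N2 (adjusted p = 0.00113) and by 1.94 in daf-2 (adjusted p = 0.000185), and it was the 1 listed gene higher in daf-2 on day 1, at 148 ± 37.7 against 58.4 ± 18.2 CPM (adjusted p = 0.0435). Of 19 zinc transport genes, 7 were higher and 4 lower in N2 on day 11, and 4 higher and 3 lower in daf-2. The shares over all genes are the same as those beside the heme genes. zipt-7.2, a ZIP-family importer, rose by 0.84 ± 0.18 in N2 (adjusted p = 0.00086) and 0.59 ± 0.18 in daf-2 (adjusted p = 0.0127), while zipt-13 of the same family fell by 1.04 (adjusted p = 0.000123) and 1.21 (adjusted p = 3.2e-05). toc-1 fell by 0.66 in N2 (adjusted p = 0.00226) and by 0.51 in daf-2 (adjusted p = 0.014). zipt-1 fell by 0.53 in N2 (adjusted p = 0.0383) and by 0.57 in daf-2 (adjusted p = 0.0285).

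Of 6 copper genes, 4 were lower in N2 on day 11, where 19.2% of all genes were, and 3 in daf-2, where 18% were, with none higher. They include cox-11, which places copper in cytochrome c oxidase (-1.24 ± 0.21 in N2, adjusted p = 8.21e-05; -0.88 ± 0.21 in daf-2, adjusted p = 0.0021), and sco-1, which serves the same enzyme (-0.88 ± 0.19, adjusted p = 0.00109; -0.70 ± 0.19, adjusted p = 0.00645). cua-1, the copper-exporting ATPase gene, was lower in N2 (-0.51 ± 0.18, adjusted p = 0.0263). Of 6 genes of iron export and iron use, the frataxin gene frh-1 fell by 0.82 in N2 (adjusted p = 0.0212) and by 0.82 in daf-2 (adjusted p = 0.0219), and the iron-sulfur scaffold gene iscu-1 fell by 0.50 in daf-2 (adjusted p = 0.00561). These were the only calls in that list on day 11, and both are mitochondrial assembly factors, not iron exporters.

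In the list of 10 cadmium and metal-response genes, 4 were lower in N2 on day 11 and 2 in daf-2, with none higher, against the same 19.2% and 18% lower over all genes. cdr-6, a member of the cadmium-responsive family, fell by 0.75 in N2 (adjusted p = 0.00168), as did cdr-2 (-0.75 ± 0.29, adjusted p = 0.0411). On day 11 cdr-2 was higher in daf-2, 27.4 ± 0.793 against 9.89 ± 2.75 CPM (log2 1.47 ± 0.29, adjusted p = 0.00308). The other calls between the strains on day 11 were cdr-3, higher at 0.408 against 0.0575 CPM (adjusted p = 0.0177), and cdf-2, a zinc-storing transporter of gut granules, lower at 5.39 against 10.9 CPM (adjusted p = 0.027); these 2 were chosen after their values were seen.

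Transcripts of 4 known regulators, daf-16, elt-2, hif-1 and hizr-1, had no change with age or strain that passed on day 11. daf-16 stood at 23.6 ± 7.12 CPM in daf-2 and 25 ± 8 in N2 on day 1 (log2 -0.09 ± 0.36, adjusted p = 1), and its day 11 changes of 0.79 ± 0.36 in N2 (adjusted p = 0.0863) and 0.84 ± 0.36 in daf-2 (adjusted p = 0.0716) did not pass. elt-2 changed by -0.11 ± 0.19 in N2 (adjusted p = 0.667) and -0.09 ± 0.19 in daf-2 (adjusted p = 0.745). For hif-1 the values were 0.13 ± 0.20 (adjusted p = 0.637) and -0.04 ± 0.20 (adjusted p = 0.883), and for hizr-1, at 3.02 ± 0.689 CPM in N2 on day 11, -0.17 ± 0.28 (adjusted p = 0.662) and -0.19 ± 0.28 (adjusted p = 0.61). None of these 4 differed between the strains on day 1 or day 11 beyond the threshold. Of the 8 regulators listed, 3 were higher in N2 on day 11, where 22.5% of all genes were, and none in daf-2, where 22.3% were. Those in N2 include pqm-1 (1.49 ± 0.26, adjusted p = 0.000143) and skn-1 (0.66 ± 0.20, adjusted p = 0.0143). In daf-2 these 2 changed by 0.439 and 0.498, in the same direction, and did not pass. On day 7, 1 of the 8 was higher in N2 and 2 in daf-2, against 12.8% and 15.1% of all genes. The 4 genes of the hypoxia pathway had no call in any comparison.

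**Figure D5:**
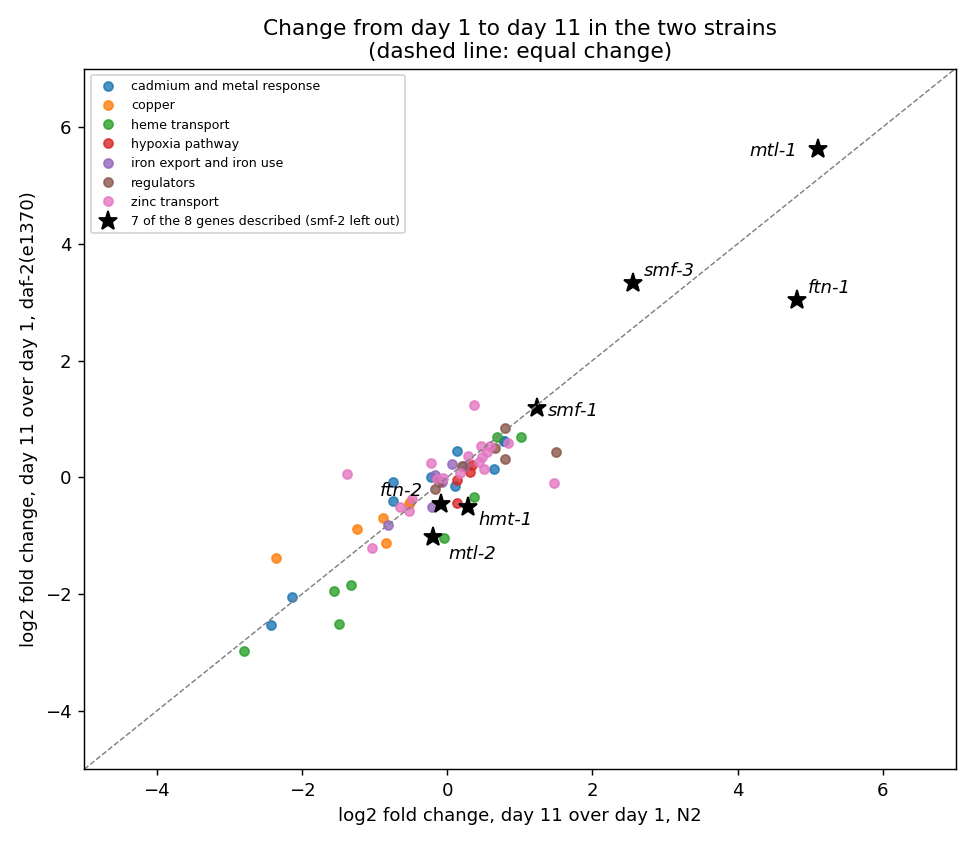
Log2 fold change from day 1 to day 11 in N2 (horizontal) against daf-2(e1370) (vertical) for the 60 tested genes of the metal lists (dots, coloured by list) and for 7 of the 8 genes described (stars), with a dashed line at equal change. mtl-1 (5.11, 5.63), ftn-1 (4.82, 3.03) and smf-3 (2.56, 3.32) lie to the upper right of the listed genes, which are spread around 0.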

How the data were processed

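Total RNA of whole worms was sequenced in 24 libraries prepared with a stranded kit after ribosomal RNA depletion, per the labels' protocols. The authors deposited a table of estimated counts (expected counts, per the file headers) for each library, which were not scaled to depth. Fractions occur in it, and the 929 to 1198 fractional values per library were rounded. STAR 2.7.0e, RSEM 1.3.1, WBcel235 and ce11 are named per the submitters' processing notes, without their roles. Whether strand was used in counting is not given in the sources used here. The expected counts of the 8 members were whole in every library.

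Groups (strain and age, 3 libraries each) came from the labels. Genes were filtered by filterByExpr (16698 kept, all 8 members included), scaled by TMM and fitted in 1 model with edgeR 4.0.16 (R 4.3.3, biological coefficient of variation 0.273). The 13 contrasts were tested by quasi-likelihood with Benjamini-Hochberg adjustment at 0.05. Log2 changes use edgeR's prior count of 0.125, likeness a prior count of 2 with the 7792 protein-coding genes averaging at least 10 CPM. SE is the change over the square root of F. Exon lengths, symbols and positions came from Ensembl release 115 (46817 of 46904 identifiers found). The fit was checked on simulated data. Alternatives were DESeq2 1.42.0, other scalings and filters, fits of only the groups compared, a replicate block, and left-out libraries.

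The members and lists were chosen with earlier results of these data known. Beyond the members, genes named are up to 3 per list with the largest called change at a mean of at least 10 CPM on day 11 against day 1 or between the strains on days 1 and 11, plus daf-16, elt-2, hizr-1 and hif-1, and the 3 most alike in pattern to each member. Symbols fpn-1.3, cdr-5 and numr-2 were not matched, and numr-1 is carried by a pair of near-identical genes. Libraries with the same number deviated together (every correlation above 0.1) in N2 day 11 against day 1, the daf-2 age comparisons and all strain comparisons. These comparisons are called paired here. Averaged over the other groups, each of the 24 libraries deviated most like the libraries of its own number. The main fit and the permutation tests of ratios did not use the pairing, and fits with the replicate block are given as an alternative. No libraries of a group agreed within sampling noise (lowest median chi-square 2.2). Intervals of smf-2 count ratios cover counting error only, and other intervals follow the SE of the edgeR fit.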

Additional observations from a re-analysis of the deposited data

Results flagged for a closer look

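The change of smf-3 from day 1 to day 4 ran in opposite directions in the strains: all 3 N2 libraries of day 4 (0.625 to 0.834 CPM) were below all 3 of day 1 (0.91 to 1.29), and all 3 daf-2 libraries of day 4 (0.859 to 0.939) were above all 3 of day 1 (0.382 to 0.806). The difference between the strains in this change was 1.35 ± 0.50 log2 units in edgeR's strain-by-age test (unadjusted p = 0.0139, adjusted p = 1), so it did not pass over all genes. The groups held 61 to 88 counts in N2 and 49 to 74 in daf-2, summed over 3 libraries.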

How the results depend on the processing

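Of the log2 changes of single genes recomputed with a changed setting (single libraries left out aside), 470 kept direction and side of the threshold, 13 gained a call, 7 lost one and 5 changed sign. Replicate number as a block raised the members called to 7 for daf-2 day 11 against day 1 and to 4 between the strains on day 11, while genes called over all 16698 rose from 6722 to 9487 and from 659 to 1615. It changed no other paired call but that of smf-1 between the strains on day 4. In comparisons that fell short of the rule for pairing, the block added smf-1 in N2 on day 4 (adjusted p = 0.0161). It also added hmt-1 in strain by age on day 11 (-0.76, adjusted p = 0.0231), so that 1 member was called there. Without replicate 3, 1 member was called there too (hmt-1, -0.93, adjusted p = 0.0444). With no filter, 1 member was called for daf-2 day 4. Without replicate 3 the age ratios were 6.48, 4.28 and 1.98 for mtl-1 to mtl-2, ftn-1 to ftn-2 and smf-3 to smf-1, each with an adjusted p of 0.0556, the smallest possible there. Leaving out 1 library, the number of members called ranged from 1 to 2 for N2 day 4 and from 1 to 3 for daf-2 day 4. It ranged from 3 to 4 for N2 day 7 and from 4 to 6 for daf-2 day 11. Between the strains on day 4 it ranged from 2 to 3, and for strain by age on day 11 it was 0 throughout. Without replicate 3, 6 members were called for daf-2 day 11. With 1 library or all those numbered 3 left out, the age ratios ranged from 5.79 to 6.87, from 4.02 to 4.36 and from 1.56 to 1.98.

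Changes of sign were limited to values that had not passed. For mtl-2 in N2 on day 11 the value was 0.06 with library size alone and 0.05 without replicate 3, and for ftn-2 there 0.09 with upper-quartile factors, 0.14 with library size alone and 0.24 without replicate 3. With single libraries left out, mtl-2 ranged from -1.46 to 0.37 and ftn-2 from -0.23 to 0.23 in N2 on day 11, mtl-2 from -1.38 to 0.06 in daf-2 on day 11, and ftn-2 from -0.43 to 0.07 between the strains on day 1. In strain by age on day 11 the ranges were -0.31 to 1.37 for mtl-1, -1.40 to 0.43 for mtl-2 and -0.19 to 0.06 for smf-1. The smf-3 to smf-1 strain ratio ranged from -0.63 to -0.36, the lowest being that without replicate 3. The causes were not tested. Library size alone moved the N2 day 11 median of all genes from 0.10 to 0.33 and the share of calls that were higher from 53.9% to 69.5%. smf-2, with few counts, entered the numbers of members called in every setting. Its own values were kept only for the main, block and DESeq2 fits.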
